A study of Mus musculus with 54 samples.

Results

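Heat shock and endoplasmic reticulum (ER) chaperones were taken as the protein-coding rows whose symbol opens with Hspa, Hspb, Hspd, Hspe, Hsph or Hsp90, Dnaja, Dnajb or Dnajc, or Pdia, followed by the member's number. The rule used names and no measured value, but it was chosen with earlier results of these data known. It found 76 genes among 21637 protein-coding rows, made up of 12 HSP70, 3 HSP90, 1 HSP110, 2 HSP60 and HSP10, 8 small heat shock protein, 4 DNAJA, 13 DNAJB, 28 DNAJC and 5 protein disulfide isomerase genes.

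Chaperones bind unfolded stretches of other proteins and release them so that they can fold. HSP70 proteins do this in cycles of ATP use that are started by J proteins (the DNAJ families) and reset by HSP110, HSP90 proteins act later on clients such as kinases and receptors, and small heat shock proteins hold unfolded proteins without ATP. Hspa5 (BiP) and Hsp90b1 (GRP94) are the HSP70 and HSP90 of the ER lumen, where the protein disulfide isomerases form and rearrange disulfide bonds. In the cytosol, heat shock factors raise these genes under protein stress, and in the ER the unfolded protein response does so through ATF6 and XBP1. Neurons also use J proteins at the synapse, where Dnajc5 and Dnajc6 serve vesicle release and clathrin uncoating.

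RNA was sequenced from cortex, striatum and cerebellum of 18 mice on a C57BL/6 background at 8 weeks of age, which gave 54 libraries. Of these mice, 10 were Mbd5+/GT, carrying on 1 allele a gene trap in an intron of Mbd5 that lowers but does not abolish its transcript, and 8 were wild-type (WT) littermates. The mice came from 3 litters: litter 1 had 3 Mbd5+/GT and 3 WT females, litter 2 had 4 Mbd5+/GT males and 1 WT male, and litter 3 had 2 Mbd5+/GT females, 1 Mbd5+/GT male, 2 WT females and 2 WT males. Litter, sex and genotype are therefore partly tied together. The paper states that a tissue type was collected within 1 day. No dates are given, so whether region and collection day are tied cannot be checked.

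The libraries held 25295973 to 49027399 reads on genes. Levels are given as CPM, the read counts scaled to library size with TMM factors. Mbd5 itself, the trapped gene, had a mean of 46.0 CPM in Mbd5+/GT and 65.9 CPM in WT cortex, 36.1 and 48.1 CPM in striatum, and 42.3 and 55.0 CPM in cerebellum. Its log2 fold change (log2FC) of Mbd5+/GT over WT was -0.49, -0.51 and -0.34 (edgeR quasi-likelihood test, adjusted p = 0.00012, 9.4e-05 and 0.0091), with 10, 10 and 9 of 10 Mbd5+/GT libraries below the WT mean. Regional markers went against the label in 4 libraries, which held less than 1/3 of the region's median. For granule cell markers these were the cerebellum of mouse M755 (Mbd5+/GT, 107 CPM summed) and mouse M754 (WT, 1442 CPM), against a median of 4361 CPM. For striatal projection neuron markers they were the striatum of mouse M754 (270 CPM) and mouse M761 (WT, 712 CPM), against 3601 CPM. Genotype and interaction counts, some striatal genotype calls and the correlations of Hspa5 and Hspa8 between regions are also given without them. Differences of single genes between regions and the spread of Hspa1b are given only with them.

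Of the 76 genes, 69 had enough reads to be tested in cortex and striatum and 68 in cerebellum. The 7 left out everywhere were Dnajb7, Dnajb8, Dnajc22, Dnajc5b, Dnajc5g, Hspb9 and Pdia2, and Hspb7 was also left out in cerebellum. In every region 63 of the 76 averaged over 1 CPM, 20 averaged over 100 CPM, and 10 stayed under 1 CPM. Together they took 0.874% ± 0.0569 of the reads in cortex, 0.917% ± 0.0666 in striatum and 0.938% ± 0.0862 in cerebellum (SD, n = 18).

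Levels between genes were compared per kilobase of exon. The constitutive cytosolic chaperones led. Hsp90ab1, the constitutive HSP90, stood highest at 367 CPM per kilobase in cortex, 509.8 in striatum and 363 in cerebellum, which placed it 34th, 26th and 31st among all protein-coding genes. Hspa8, the constitutive HSP70 that also uncoats clathrin vesicles, followed with 277, 307 and 332 CPM per kilobase, and Hsp90aa1, the HSP90 that heat induces, with 191, 159 and 201. The ER pair came next, Hsp90b1 with 88.9, 96.1 and 107 CPM per kilobase and Hspa5 with 74.7, 88.2 and 103. At the other end, the heat-inducible Hspa1a had 1.37, 1.35 and 1.24 CPM per kilobase, and Hspa1b 1.53, 1.27 and 1.06. The last pair are near-identical copies, so reads from their shared sequence cannot be assigned to either. Both levels, and their place at the low end, are therefore uncertain. Pdia5, an ER disulfide isomerase, had 2.31, 3.39 and 0.533 CPM per kilobase.

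**Figure D1:**
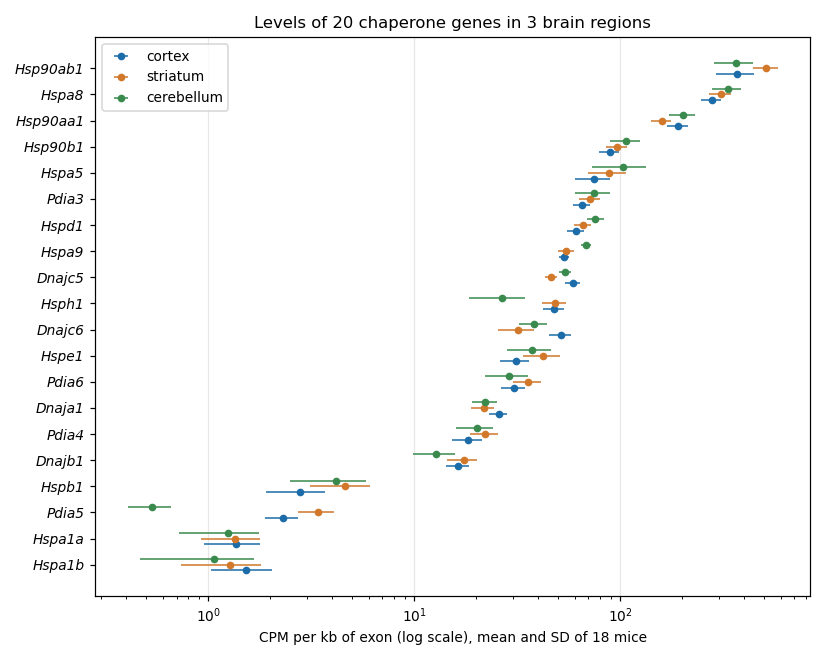
Level of 20 chaperone genes in cortex, striatum and cerebellum, in CPM per kilobase of exon on a log axis, as the mean and SD of 18 mice. Hsp90ab1 and Hspa8 stand highest in every region, and Hspa1a and Hspa1b lie near 1 CPM per kilobase.

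The regions differed in most of these genes, but seldom by a large factor. The fit behind these p-values did not pair the libraries of a mouse. In cortex against cerebellum 50 of 69 passed an adjusted p of 0.05 (23 higher and 27 lower in cortex), where 68.9% of all 20477 genes tested did (33.3% higher and 35.5% lower). In striatum against cerebellum 49 of 69 passed (20 higher, 29 lower) beside 75.2% of all genes (37.3% and 38%). In striatum against cortex 49 passed (25 higher, 24 lower) beside 58.9% (28.9% and 30.1%). An added 2-fold difference was met by 6 of 69 in cortex against cerebellum (5 higher, 1 lower), where 25.5% of all genes met it (16.5% and 9.04%). It was met by 5 in striatum against cerebellum (4 higher, 1 lower; all genes 29.4%, as 17.5% and 11.9%), and by 2 in striatum against cortex (1 each way; all genes 9.12%, as 4.03% and 5.09%). With only genes that passed the filter on low counts in both regions, a setting chosen after seeing the data that leaves out Hspb7 for cerebellum, the counts were 49 of 68 (22 higher, 27 lower; all genes 69.8%) and 48 of 68 (19 higher, 29 lower; all genes 76.2%) against cerebellum, with 5 and 5 at 2-fold (all genes 20.2% and 23.7%). The median size of the log2 difference was 0.26, 0.25 and 0.25 over the chaperones and 0.46, 0.57 and 0.34 over all genes. In tissue, fewer cells of a type and less RNA per cell cannot be told apart.

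Pdia5 had the largest fold over cerebellum of the 69 genes in both forebrain regions. It ranged from 4.47 to 8.32 CPM in cortex (median 6.18), from 5.20 to 13.1 CPM in striatum (median 9.24) and from 1.05 to 2.24 CPM in cerebellum (median 1.37, 27 to 77 reads). No cerebellar library reached the lowest cortical or striatal one. The fitted fold over cerebellum was 4.33 in cortex (log2FC 2.11 ± 0.10 SE, edgeR adjusted p = 4.8e-25) and 6.34 in striatum (2.66 ± 0.10, adjusted p = 5.4e-29), the same way in 18 of 18 mice for both. Striatum exceeded cortex by 0.55 ± 0.09 (adjusted p = 2.9e-06) in 16 of 18 mice. The 2 highest cerebellar values, 2.24 and 2.16 CPM, came from mice M754 and M755, the libraries low in granule cell markers. The other isomerases lay closer together: Pdia3 had mean levels of 204, 225 and 234 CPM in cortex, striatum and cerebellum.

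Among the cytosolic chaperones, Hsph1, the HSP110 that resets HSP70, averaged 346 CPM in cortex, 349 CPM in striatum and 193 CPM in cerebellum, or 0.85 ± 0.09 above cerebellum on the log2 scale in both (edgeR adjusted p = 9.5e-12 and 6.6e-12). It was higher than cerebellum in 17 and 16 of 18 mice. Hspa4l, a relative of HSP110, went the other way. It averaged 202, 135 and 328 CPM, with a log2 difference to cerebellum of -0.70 ± 0.10 in cortex and -1.31 ± 0.10 in striatum (edgeR adjusted p = 6e-09 and 2.2e-17). Hspa2, the HSP70 best known from the male germ line, had 25.8 CPM in cortex, 31.3 CPM in striatum and 11.9 CPM in cerebellum, and Dnajb5, a J protein of the cytosol, had 207, 180 and 81.8 CPM. Both were fitted over 2-fold above cerebellum in either forebrain region, and were higher there in 18 of 18 mice. Hsp90ab1 was higher in striatum than in cortex in 18 of 18 mice (1529 against 1101 CPM, log2 difference 0.48 ± 0.10, edgeR adjusted p = 4.2e-05).

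Small heat shock proteins differed in both directions between regions. Hspb3 had 2.38 CPM in cortex, 0.971 CPM in striatum and 0.641 CPM in cerebellum, so that cortex exceeded cerebellum 3.77-fold and striatum 2.45-fold. Hspb6 ran the other way, with 4.00, 5.64 and 8.91 CPM, and cortex and cerebellum did not overlap. Hspb7 had at most 18 reads in any library and passed the filter on low counts only through cortex and striatum, so its fold over cerebellum is not given. Of 8 mitochondrial chaperones, 6 were lower and 1 was higher in cortex than in cerebellum, where 35.5% of all genes were lower and 33.3% higher. Among the lower were Hspa9, the mitochondrial HSP70, with 229 against 294 CPM and no overlap, and Hspd1, the HSP60 of the mitochondrial matrix, with 161 against 200.2 CPM.

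The 3 J proteins of synapse and endocytosis tested (Dnajc5, Dnajc6 and Dnajc13) were all lower in striatum than in either other region. Of all genes, 38% were lower in striatum than in cerebellum and 30.1% lower than in cortex. Of the 25 DNAJC genes tested, 14 were lower and 7 higher in striatum than in cerebellum, and 12 lower and 9 higher than in cortex. Dnajc5 (cysteine string protein) averaged 408 CPM in cortex, 322 CPM in striatum and 375 CPM in cerebellum, and Dnajc6 (auxilin, which helps HSP70 uncoat clathrin vesicles) 303, 188 and 225 CPM. Dnajc6 in striatum lay below cortex by 0.71 ± 0.08 on the log2 scale (edgeR adjusted p = 2.2e-10) in 17 of 18 mice. Dnajb13, a J protein of motile cilia, was 3.45-fold above cerebellum in striatum, from 0.361 to 2.55 CPM against 0.0292 to 0.678 CPM, so the groups overlapped.

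**Figure D2:**
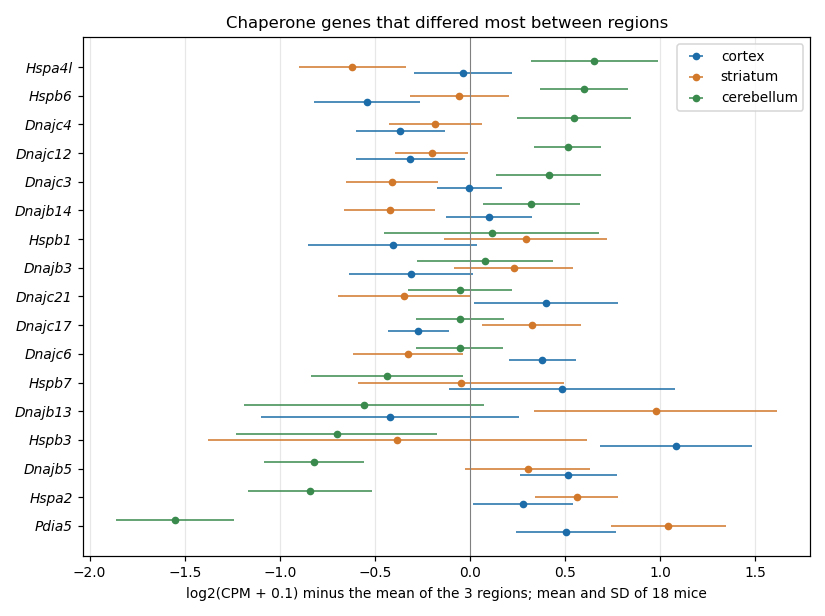
Chaperone genes that differ between the regions, plotted as log2(CPM + 0.1) minus the mean of the 3 regions, with the mean and SD of 18 mice. Pdia5 has its cerebellar mean far below both others, while Hspb6 and Hspa4l have theirs above.

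The genotype comparison asked whether lower Mbd5 moved these genes, and no chaperone passed it after adjustment over all genes tested. The chaperone closest to the threshold had an adjusted p of 0.344 in cortex, 0.629 for striatum and 1.00 for cerebellum (edgeR). Over all genes 2, 1 and 1 passed, or 0.0107%, 0.00539% and 0.00551%. At an unadjusted p under 0.05, 5 of 69 chaperones were found in cortex, 5 of 69 in striatum and 1 of 68 in cerebellum, where 8.47%, 7.44% and 2.75% of all genes were. Of all genes, 3.96% were higher and 4.51% lower in cortex. For striatum these were 4.24% and 3.2%, for cerebellum 0.964% and 1.78%. Of the chaperones, in the same order, 2 were higher and 3 lower, 3 and 2, and 0 and 1. The median size of the log2FC was 0.04 in each region, and 0.06, 0.08 and 0.04 over all genes.

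In cortex the 5 were Dnajc4 (0.22 ± 0.06) and Dnajb3 (0.34 ± 0.13), higher in Mbd5+/GT, and Hsph1 (-0.16 ± 0.05), Pdia5 (-0.25 ± 0.09) and Dnajb4 (-0.11 ± 0.05), lower. Markers of motile cilia and choroid plexus also stood higher in Mbd5+/GT cortex, with 6 of 8 and 5 of 6 at an unadjusted p under 0.05. Their summed levels ran from 37.5 to 86.7 CPM (cilia) and 8.26 to 1283 CPM (choroid plexus) in Mbd5+/GT, against 36.9 to 54.8 and 20.9 to 239.8 CPM in WT, and no marker of either list was at 0. Of 8 markers of striatal projection neurons, Penk and Tac1 were lower in Mbd5+/GT cortex at that p, and the median log2FC of the list was -0.43, beside 0.39 for cilia and 2.00 for choroid plexus. Their summed level ran from 262 to 1383 CPM in Mbd5+/GT and from 179 to 2012 CPM in WT, with none at 0. The part of these 3 lists in the chaperone values was not tested. In striatum the 5 were Dnajb9 (0.25 ± 0.10), Hspa13 (0.17 ± 0.07) and Dnajc6 (0.13 ± 0.06), higher, and Hspb8 (-0.26 ± 0.09) and Pdia5 (-0.21 ± 0.08), lower. Dnajb9 is an ER J protein that holds IRE1 in check and Hspa13 is an HSP70 of the ER membrane. Without the 2 striatal libraries low in projection neuron markers, Dnajb9, Hspa13 and Dnajc6 had log2FC of 0.16, 0.12 and 0.08 and no longer reached an unadjusted p of 0.05. Hspa5 had log2FC of -0.02, 0.02 and 0.10 in cortex, striatum and cerebellum (unadjusted p = 0.837, 0.872 and 0.586, edgeR).

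Pdia5 was the 1 chaperone with an unadjusted p under 0.05 in all 3 regions, lower in each, as were 7 of 17221 genes (0.0406%). No chaperone was higher in all 3, as 0.0116% of genes were. Pdia5 (ENSMUSG00000022844) lies at chr16:35397312-35490873 on the - strand of GRCm38. In cortex it ran from 4.47 to 7.28 CPM in Mbd5+/GT and from 5.43 to 8.32 CPM in WT, with means of 5.87 ± 0.908 (SD, n = 10) and 7.07 ± 1.15 (SD, n = 8). In striatum the means were 8.82 ± 1.76 and 10.1 ± 1.86 CPM, and in cerebellum 1.37 ± 0.364 and 1.605 ± 0.319 CPM. The genotypes overlapped in every region, and 9, 7 and 7 of 10 Mbd5+/GT libraries lay below the WT mean. The log2FC was -0.25 ± 0.09, -0.21 ± 0.08 and -0.27 ± 0.11 (edgeR adjusted p = 0.448, 0.630 and 1.00, unadjusted 0.0124, 0.0212 and 0.0244). An exact permutation test without surrogate variables gave two-sided p = 0.0301, 0.160 and 0.133. Within each litter the Mbd5+/GT mean was the lower one in all 3 regions, which held for 34 of 17221 genes (0.197%) and for no other chaperone. The same values gave the p-values above, so this is not separate support. In litter 2 the difference rests on 1 WT mouse. The regions come from the same mice, and the log2FC did not differ detectably between them (interaction, unadjusted edgeR p = 0.825, 0.889 and 0.709).

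**Figure D3:**
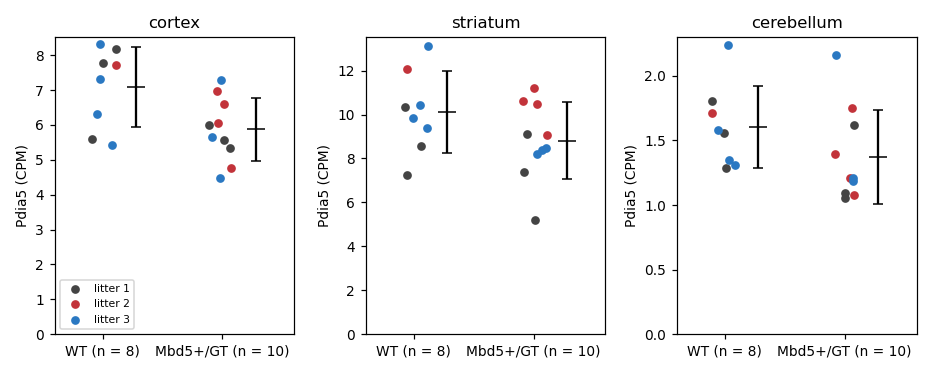
Pdia5 level (CPM) in each library by region and genotype, coloured by litter, with the mean and SD of 10 Mbd5+/GT and 8 WT mice. The genotypes overlap in every region, and cerebellum lies at 1.05 to 2.24 CPM, below every cortical and striatal library.

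The effect of genotype differed between regions for no chaperone after adjustment. At an unadjusted p under 0.05, 0 of 69 were found for cortex against cerebellum, 1 for striatum against cerebellum and 3 for striatum against cortex, where 1.11%, 2.68% and 4.22% of all genes were. Dnajb9 was in both of the last, its log2FC in striatum exceeding that in cerebellum by 0.38 ± 0.16 and that in cortex by 0.46 ± 0.16. The count for striatum against cerebellum was 0 without the libraries low in regional markers (all genes 2.54%), 0 without the 2 labelled as repeated (1.96%) and 3 with the mouse as a block (2.64%). Dnajb4 and Hspa13 made up the rest, with striatum above cortex by 0.31 ± 0.12 and 0.40 ± 0.19.

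The partners of these proteins were counted at the same unadjusted p, which 8.47% of all genes reached in cortex, 7.44% in striatum and 2.75% in cerebellum. Of 27 heat shock factors and co-chaperones, 1 was higher in cortex and 3 in striatum at an unadjusted p under 0.05, with Ptges3 (p23, an HSP90 co-chaperone) at a log2FC of 0.22 ± 0.08 in striatum. Of 34 unfolded protein response genes, 1 was higher and 2 lower in cortex, 2 higher and 1 lower in striatum, and 1 lower in cerebellum. Among these Atf6, the ER membrane sensor, had -0.18 ± 0.05 in cortex, and Trib3, a target of the response, had 0.31 ± 0.14 in striatum and -0.29 ± 0.12 in cerebellum. Of 13 genes of mitochondrial protein quality control, 1 was higher and 2 lower in striatum, and of 14 genes of the cytosolic chaperonin 1 was higher there. Of 13 circadian clock genes 2 were lower in cortex, and of 12 immediate early genes 1 was lower in striatum. None of these passed after adjustment. The chaperones themselves, by compartment, gave 2 of 12 cytosolic stress-inducible genes in cortex and 1 in striatum, 1, 3 and 1 of 13 ER genes in cortex, striatum and cerebellum, 0 of 8 mitochondrial genes anywhere, and 1 of 3 synaptic J proteins in striatum, to be read against the same shares of all genes.

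Hspa5 varied between mice, and a mouse high in 1 region tended to be high in the others. The gene (ENSMUSG00000026864, chr2:34771970-34777547, + strand) ran from 235 to 440 CPM in cortex, from 270 to 571 CPM in striatum and from 269 to 688 CPM in cerebellum, a 1.87, 2.12 and 2.56-fold range. Mouse M766 was highest in each region, and mice M754, M764, M765 and M766 were among the 6 highest in all 3. After removal of the genotype means in each region, the deviations of the 18 mice correlated between cortex and cerebellum with Pearson r = 0.956 and Spearman rho = 0.903 (permutation test, adjusted p = 0.00012 for both, from the smallest p that the permutations can give, 1e-05). Leaving out the 2 mice farthest from the median gave r = 0.950. Between striatum and cerebellum r was 0.811 and rho 0.843 (permutation test, adjusted p = 0.00028 and 0.00024), and 0.723 without 2 mice. Between striatum and cortex r was 0.828 and rho 0.845 (permutation test, adjusted p = 0.00012 and 0.00018), and 0.723 without 2 mice. The adjustment ran over 12 correlations, 3 for each of 4 genes.

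Hspa8 gave r of 0.472, 0.413 and 0.509 and rho of 0.453, 0.187 and 0.579 for the same pairs of regions (permutation test, adjusted p = 0.113, 0.152 and 0.0898 for r and 0.122, 0.685 and 0.0390 for rho), and striatum with cerebellum gave r = -0.06 without 2 mice. In the 15 mice that gave no library low in regional markers, Hspa8 gave r of 0.622, 0.712 and 0.563 (permutation test, adjusted p = 0.0319, 0.00834 and 0.0551), so that its result rests on which mice are used. Hspa1b gave r of 0.456, 0.207 and 0.277 and rho of 0.503, 0.148 and 0.286, and Hsp90aa1 r of 0.099, 0.085 and 0.193 and rho of -0.06, 0.10 and 0.12, with no adjusted permutation p under 0.05 in the 18 mice.

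Hspa5 was also set out by litter. In cerebellum litter 1 held 294 to 399 CPM (median 353), litter 2 held 440 to 688 CPM (median 622), litter 3 females 269 to 564 CPM (median 428) and litter 3 males 355 to 423 CPM (median 364). Litters 1 and 2 did not overlap there, but did in cortex (252 to 334 against 289 to 440 CPM) and in striatum (309 to 428 against 349 to 571 CPM). Litter 2 was all male with 4 of 5 mice Mbd5+/GT, so litter, sex and genotype cannot be told apart in it. With deviations taken from litter means, r was 0.895, 0.733 and 0.784, without litter 2 it was 0.922, 0.751 and 0.763, and without the 3 mice that gave libraries low in regional markers it was 0.947, 0.770 and 0.774.

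**Figure D4:**
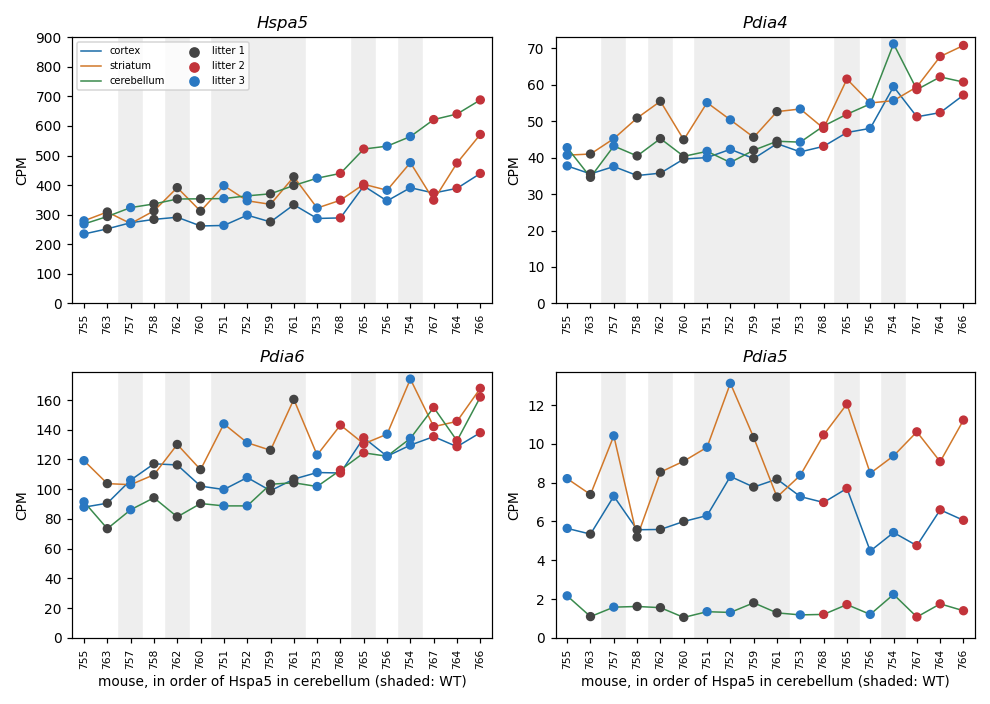
Level (CPM) of Hspa5, Pdia4, Pdia6 and Pdia5 in each of 18 mice in 3 regions, with mice ordered by cerebellar Hspa5, WT mice shaded and litters coloured. Hspa5, Pdia4 and Pdia6 climb together from left to right in each region, and Pdia5 does not.

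The same measure was taken for every gene averaging at least 10 CPM in each region, as the lowest of its 3 correlations. Hspa5, at 0.811, was 8th of 9526 genes. Ahead of it came Eif2s3y, Kdm5d and Ddx3y of the Y chromosome and Xist, which follow sex, and Akr1e1, Ciart and Xbp1, the last being the transcription factor of the unfolded protein response. Over 0.5 lay 6 of 52 chaperones, or 11.5%, and 56 of 9526 genes, or 0.588%. The others of the 6 were Pdia4 (0.736), Dnajb11 (0.591), Pdia6 (0.585), Dnaja4 (0.569) and Hsp90b1 (0.524). Pdia4 and Pdia6 are disulfide isomerases and Dnajb11 is the ER J protein that serves Hspa5, while Dnaja4 belongs to the cytosol. From litter means, 2 of 52 chaperones and 34 genes (0.357%) lay over 0.5, and Hspa5 was 9th and Pdia4 22nd. Among the 56 were also Manf and Creld2 of the unfolded protein response, the haemoglobin genes Hbb-bt, Hbb-bs and Hba-a1, and Sgk1, Txnip, Klf15 and Ddit4.

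**Figure D5:**
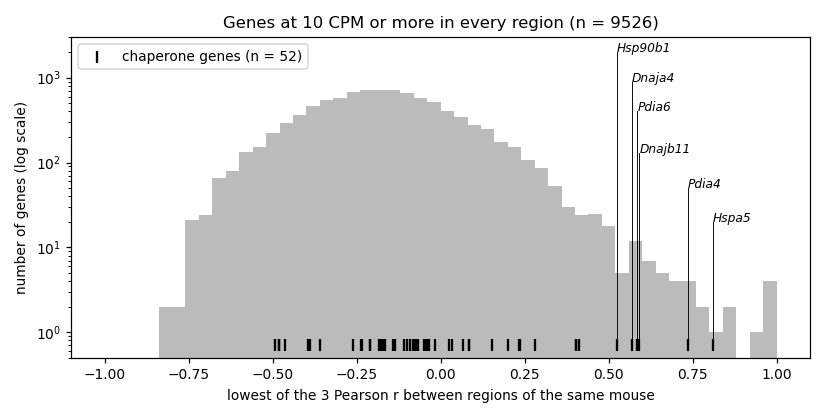
Lowest of the 3 between-region correlations of a gene's deviations over 18 mice, as a histogram of 9526 genes, with ticks for 52 chaperones and 6 of them named. Hspa5 stands at 0.811 and Pdia4 at 0.736, far right of the bulk, whose median is -0.18.

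Across the 18 mice of a region, the 5 genes most like Hspa5 were ER chaperones and genes of the unfolded protein response. By Pearson r of the same deviations, the leading genes of 10374 in cortex were Pdia6 (0.924), Manf (0.916), Xbp1 (0.915), Pdia4 (0.894) and Pdia3 (0.887). In striatum they were Pdia6 (0.869), Hsp90b1 (0.855), Pdia4 (0.849), Xbp1 (0.829) and Manf (0.827), and in cerebellum Manf (0.947), Pdia6 (0.938), Hsp90b1 (0.936), Sdf2l1 (0.930) and Pdia3 (0.915). These values come from the same libraries and are given as a description. They were not taken from litter means. In cerebellum litters 1 and 2 did not overlap for Pdia3, Pdia4, Pdia6 and Dnajb11, while for Hsp90b1 they did. The part of litter in these values was not tested. Of the ER chaperones tested, only Hsp90b1, Pdia3, Pdia4, Pdia6 and Dnajb11 followed Hspa5 in every region, with r of 0.668 or more. The cytosolic Hspa8 also did, with r of 0.780, 0.693 and 0.701 in cortex, striatum and cerebellum, unlike the other cytosolic stress-inducible genes. The other ER chaperones did not. Dnajc3 (p58IPK, which restrains PERK) had r of 0.14, -0.09 and 0.28 with Hspa5 in cortex, striatum and cerebellum. In the same order Pdia5 had -0.09, 0.20 and 0.05, and Dnajb9 -0.15, -0.54 and 0.02. Hspa13 had 0.03, -0.47 and -0.07, and Dnajc10 -0.17, -0.39 and -0.27. Dnajc1 had -0.08, 0.33 and -0.06, and Dnajc25 -0.23, -0.02 and 0.05.

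Windows of 300 bases around RefSeq starts (GRCm38.p6) were searched on both strands for an ER stress element and a heat shock element. Whether these elements bear on the correlations was not tested. An ER stress element was read as CCAAT and CCACG with 9 bases between them. It was found in 39 of 32851 promoters (0.119%), or 37 of 27025 genes, and in 4 of the 62 chaperones with a promoter entry. They are Hspa5, Hsp90b1 and Pdia6, which moved together, and Dnajc3, which did not, and they are shown to set the matches side by side, with the matched stretch in capitals. The windows are chr2:34771840-34772139 on the + strand for Hspa5, chr10:86705395-86705694 on the - strand for Hsp90b1, which has 2 matches, chr12:17266339-17266638 on the + strand for Pdia6 and chr14:118937682-118937981 on the + strand for Dnajc3.
Hspa5: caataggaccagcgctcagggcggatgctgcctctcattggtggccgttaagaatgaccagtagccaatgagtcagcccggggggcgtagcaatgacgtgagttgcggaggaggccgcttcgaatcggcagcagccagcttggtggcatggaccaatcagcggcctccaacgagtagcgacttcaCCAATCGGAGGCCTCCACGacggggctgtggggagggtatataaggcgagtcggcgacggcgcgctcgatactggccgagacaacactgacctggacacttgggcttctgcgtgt
Hsp90b1: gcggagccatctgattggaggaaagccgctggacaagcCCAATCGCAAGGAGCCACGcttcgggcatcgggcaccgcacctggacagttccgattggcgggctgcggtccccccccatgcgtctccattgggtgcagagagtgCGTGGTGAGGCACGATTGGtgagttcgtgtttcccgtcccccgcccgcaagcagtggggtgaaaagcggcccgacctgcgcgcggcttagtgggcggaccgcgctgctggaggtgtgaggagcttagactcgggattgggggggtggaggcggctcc
Pdia6: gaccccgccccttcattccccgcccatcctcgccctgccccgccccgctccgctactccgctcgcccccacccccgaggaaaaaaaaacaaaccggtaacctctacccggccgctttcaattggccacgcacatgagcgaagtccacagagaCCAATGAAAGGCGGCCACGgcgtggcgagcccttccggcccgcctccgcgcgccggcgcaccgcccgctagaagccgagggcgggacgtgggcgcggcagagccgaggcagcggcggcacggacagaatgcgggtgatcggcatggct
Dnajc3: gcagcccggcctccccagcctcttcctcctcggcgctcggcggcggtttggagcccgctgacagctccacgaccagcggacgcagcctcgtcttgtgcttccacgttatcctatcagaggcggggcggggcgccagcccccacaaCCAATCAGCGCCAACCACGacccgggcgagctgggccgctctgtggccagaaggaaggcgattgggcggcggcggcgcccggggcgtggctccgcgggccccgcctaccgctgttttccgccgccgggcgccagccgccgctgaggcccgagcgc

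Pdia4, Pdia3 and Dnajb11 had no such match in their windows. A heat shock element was read as GAA and TTC units in turn, 3 in all with 2 bases between them. It was in 198 of 32851 promoters (0.603%), or 179 of 27025 genes, and in 4 of the 62 chaperones, Dnajb6, Hspd1, Hspe1 and Hsph1. Hspd1 and Hspe1, the HSP60 and HSP10 that form the mitochondrial folding chamber, lie head to head and share 1 stretch of 2 overlapping matches. It is shown in the Hspd1 window, chr1:55087883-55088182 on the - strand, to show how close the pair of starts lies.
Hspd1: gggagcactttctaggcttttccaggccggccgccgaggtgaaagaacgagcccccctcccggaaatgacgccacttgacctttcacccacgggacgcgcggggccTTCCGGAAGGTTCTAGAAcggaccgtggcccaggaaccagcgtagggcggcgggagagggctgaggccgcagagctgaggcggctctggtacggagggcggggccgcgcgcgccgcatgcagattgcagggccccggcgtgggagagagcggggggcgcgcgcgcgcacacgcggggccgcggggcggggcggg

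Hspa1b and Hspa1a varied more between mice than most chaperones. The biological coefficient of variation of Hspa1b was 31.2% in cortex, 39.7% in the striatum and 49.03% in the cerebellum, where the median over the chaperones was 13.8%, 16.8% and 19.1% and that over all genes tested 17.1%, 22.1% and 24.1%. That of Hspa1a was 26.6%, 31.4% and 40.9%. Hsp90aa1 and Dnajb1, which heat also induces, varied less, with 13.1%, 14.7% and 17.0% for Hsp90aa1 and 13.8%, 15.9% and 23.7% for Dnajb1. Hspa1b ran from 1.94 to 6.91 CPM in cortex, from 1.63 to 7.13 CPM in striatum and from 1.18 to 7.88 CPM in cerebellum. Its highest striatal and cerebellar values came from mice M761 and M754, both in libraries low in regional markers. Across the mice of a region Dnajb1, the J protein that heat induces with it, had r of 0.79, 0.58 and 0.82 with Hspa1b, and Hspa1a, its near-identical copy, 0.88, 0.89 and 0.91. Hsp90aa1 had -0.24, 0.03 and 0.29. The other cytosolic stress-inducible genes were mixed. Hspa4l had -0.62, -0.29 and -0.49 and Hspb8 -0.09, -0.29 and -0.04, while Hspb1 had 0.58, 0.56 and 0.61. Of all genes the most like Hspa1b were Dpf1 (0.907) and Sbk1 (0.897) in cortex, Ttll1 (0.897) and Rgs19 (0.875) in striatum, and Calr (0.864) and Hspa8 (0.846) in cerebellum.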

How the data were processed

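RNA-seq libraries of 54 tissue samples were used. Per the study's methods and the submitters' processing notes, the authors checked reads with FastQC 0.10.1, aligned them with STAR 2.4.2 to GRCm38 and counted reads per gene with STAR, and the deposited values are raw counts; the strand setting is not given in the sources used here, so 9 members that share over 10% of their exon bases with a gene on the other strand are uncertain. A gene was tested where 8 or more libraries each held over 4 counts. Genotype was tested within each region by edgeR 4.0.16 (R 4.3.3, TMM, quasi-likelihood) with 4, 4 and 2 surrogate variables from sva 3.50.0, on counts scaled by DESeq2 1.42.0 size factors. Regions and interactions were tested in 1 fit of the 54 libraries. P-values were adjusted by Benjamini-Hochberg over all genes. Correlations used log2 CPM (prior count 2), with 100000 permutations in SciPy 1.17.1 (Python 3.11.15). Scripts were tested on simulated data. There the genotype fits recovered 24%, 0% and 4% of 1.25-fold changes in cortex, striatum and cerebellum at an adjusted p under 0.05. Of 1.5-fold changes they recovered 74%, 22% and 50%, and of 2-fold changes 94%, 64% and 80%, so small genotype changes can be missed. The genes named were 20 fixed by name, up to 8 per region by genotype p, up to 4 each way per pair of regions by size, 5 per region by spread between mice, the 5 per region most like Hspa5 and Hspa1b, and up to 4 per pathway list and region by p. The members and lists were chosen with earlier results of these data known. Genotype and correlation p-values measure the spread between mice. Those of regions and interactions come from a fit without the mouse, which takes the 54 libraries as independent. The alternatives changed the filter, scaling, tool, covariates, litters and libraries. Mouse numbers pair the regions, since the 3 libraries of a number come from 1 animal.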

Additional observations from a re-analysis of the deposited data

Results flagged for a closer look

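Of 240 groups of 8 or 10 libraries examined for a library apart from the rest, 15 held one, where chance gives about 1 in 20. The 240 include 48 groups of 8 genes that were named for their spread between mice and held 3. The other 192 held 12, where chance gives 9.6. Mouse M755 (Mbd5+/GT), whose cerebellar library was low in granule cell markers, gave 4 of them in cerebellum. It was lowest for Dnajb4 at 63.9 CPM (next 77.5, median 85.2) and Dnajb5 at 48.5 CPM (next 79.3, median 87.6), and highest for Dnajc21 at 43.6 CPM (next 27.1, median 25.03) and Hspb8 at 38.9 CPM (next 23.5, median 18.8). The cerebellum of mouse M754 (WT), also low in these markers, was highest for Hsph1 at 365 CPM (next 211, median 175), and the striatum of mouse M761 (WT), low in projection neuron markers, for Dnajb1 at 87.0 CPM (next 63.6, median 55.9).

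The remaining libraries were not low in regional markers. In Mbd5+/GT cerebellum, mouse M763 was lowest for the head-to-head pair Hspd1, at 153 CPM (next 196), and Hspe1, at 27.7 CPM (next 45.6). Mouse M758 was lowest there for the ER chaperones Dnajb9, at 31.6 CPM (next 41.3), and Hspa13, at 28.5 CPM (next 39.1), and mouse M764 for Dnajb13, at 0.0292 CPM (next 0.192). Mouse M756 was lowest for Dnajb13 in Mbd5+/GT striatum at 0.361 CPM (next 0.834). Mouse M758 was highest for Dnajc12 in Mbd5+/GT cortex at 15.3 CPM (next 10.7). In WT cortex, mouse M765 was highest for Hspa8 at 1488 CPM (next 1219) and mouse M757 for Hspb2 at 1.90 CPM (next 0.798).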

How the results depend on the processing

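Among summary values, 178 held under the alternatives tried and 20 did not, and the cause was not tested. A count held where it stayed within a set factor of its main value, whichever genes it held. A correlation held where it kept its direction and side of the threshold. Of the 20, 17 were counts. The share of all genes under the same alternative follows each count in parentheses. Chaperones at an unadjusted p under 0.05 in cortex numbered 11 with at least 10 counts in every library (11.2%, 2 higher and 9 lower of 66) and 2 without surrogate variables (3.43%). In striatum they numbered 2 with that filter (4.34%), 1 without surrogate variables (5.44%), 9 with litter and sex fitted in their place (9.22%), 0 without litter 2 (1.57%), 2 without the 2 libraries labelled as repeated (4.66%) and 3 without those low in regional markers (5.46%), the last chosen after seeing the data. In cerebellum they numbered 0 with 1 surrogate variable fewer (1.17%), with none of them (0.463%) or with litter and sex fitted (0.529%), and 2 without libraries low in regional markers (2.43%). Without those, the interaction counts were 1 for cortex against cerebellum (1.49%) and 0 for striatum against cerebellum (2.54%), which was also 0 without the repeated libraries (1.96%). The filter of 10 counts left 0 chaperones 2-fold apart between striatum and cortex (3.71%). In the 15 mice with no library low in regional markers, Hspa8 had r = 0.622 (cortex and cerebellum) and 0.712 (striatum and cerebellum), both past the threshold, and Hsp90aa1 -0.14 (striatum and cerebellum).

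Regions of 1 mouse are paired by mouse number. With the mouse as a replicate block, 50 chaperones differed between cortex and cerebellum and 51 between striatum and cerebellum, and 3 in the striatum against cerebellum interaction at an unadjusted p under 0.05 (2.64% of all genes). Genotype groups share no mouse, so genotype has no paired fit within a region. Of single-gene results, 245 held, 39 no longer reached the threshold and 1 reversed, Hspa13 in striatum at -0.0297 without litter 2. In cortex an unadjusted p under 0.05 was reached in 3 of 8 alternatives for Dnajb3, 6 for Dnajb4 and Hsph1, and 7 for Dnajc4. In striatum it was reached in 4 of 10 for Dnajc6, 5 for Hspa13, and 6 for Dnajb9 and Hspb8. Pdia5 kept its direction in all alternatives, from -0.28 to -0.17 in cortex, -0.30 to -0.17 in striatum and -0.28 to -0.23 in cerebellum, with an unadjusted p under 0.05 in 5 of 8, 7 of 10 and 6 of 9. Adjusted p (edgeR, DESeq2 in 1 alternative) was 0.321 or more in each. Low depth limits Hspb7 and Dnajb13, on at most 18 and 77 reads.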
